A study of Mus musculus with 2 samples.

Results

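Hyaluronan is a very long sugar polymer of the dermal and epidermal matrix. It is made at the plasma membrane by hyaluronan synthases, cross-linked outside the cell by binding proteins, bound by receptors on cells and cut into fragments by hyaluronidases. In skin it holds water, fibroblasts and keratinocytes both make it, and its turnover is fast. The 9 genes described here were chosen by symbol, out of 33904 genes in the matrix of each library. They are the synthases Has1, Has2 and Has3, the matrix-binding proteins Tnfaip6 (TSG-6) and Ptx3 (pentraxin 3), the receptor Cd44, the hyaluronidases Hyal1 and Hyal2, and Cemip, a hyaluronan-binding protein needed for a route of breakdown that does not use those hyaluronidases. Each symbol stood on 1 row.

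The study sequenced 1 library of dorsal skin cells from each of 2 groups of female C57BL/6J mice aged 7 weeks, depilated on the back before treatment. In the AD group, MC903 (calcipotriol, a vitamin D analog that gives a dermatitis-like reaction when put on mouse skin) was applied at 4.5 nmol a day for 10 days. The Ctrl group had the ethanol vehicle (EtOH) on the same schedule, and skin was taken on day 10 in both. Neither library has a replicate and the number of mice in each is not given in the sources used here, so no test between the groups was possible. All intervals below are 95% and cover counting error only.

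After the cell filter 11399 Ctrl and 8179 AD cells remained, with medians of 7813 and 6330 UMIs (unique molecular identifiers, 1 for each captured RNA molecule), and 35 of the deposited barcodes were shared between the libraries. Each class name below stands for the cells that pass a gate on its marker genes, not for cells named by the study, and 10.8% of Ctrl and 11.6% of AD cells were left ungated. Dermal fibroblasts (dFBs) numbered 5734 in Ctrl and 5024 in AD, 50.3% and 61.4% of the cells. All 8 dFB markers were detected in dFBs of both libraries, but their summed level was 55440 CPM (counts per 1000000 UMIs of the summed cells) in Ctrl and 12862 in AD. The fibroblast subsets differed in number too. Contractile dFBs, with smooth muscle genes, were 408 in Ctrl and 14 in AD, follicle mesenchyme dFBs were 165 and 16, and pAd (preadipocyte) dFBs were 264 and 879. No subset was given to 46.3% of the Ctrl and 47.0% of the AD dFBs. A stricter subset gate, with a wider margin over the next subset, would leave out 859 of the 1506 Ctrl and 155 of the 1101 AD dFBs of the HI-AP subset, and subset values that it moved are given below. The cells called hair matrix cells below passed a gate on Krt25, Krt27, Krt28, Krt71, Krt35, Msx2 and Hoxc13. Its highest markers in Ctrl were Krt28 (308 CPM) and Krt25 (277 CPM), keratins of the inner root sheath, so the name covers sheath cells too. Keratinocytes (KCs) numbered 1460 and 401, and hair matrix cells 380 and 0. The part of these differences in the results below was not tested, apart from the values given without contractile and follicle mesenchyme dFBs.

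The results turn on 4 genes, Tnfaip6, Ptx3, Has1 and Cemip, whose level in dFBs was about 2-fold or more apart between the libraries. The 160 bases before their transcription starts are shown because they lie next to the starts of these genes, each of which was higher in AD. They come from RefSeq on GRCm38.p6, and each is written 5′ to 3′ on the gene's own strand. The Tnfaip6 stretch is chr2:52037953-52038112 on the plus strand, that of Ptx3 chr3:66219727-66219886 on the plus strand, that of Has1 chr17:17855189-17855348 on the minus strand and that of Cemip chr7:84086506-84086665 on the minus strand. These RefSeq starts differ from the GENCODE gene positions given below. By those positions Tnfaip6 starts at 52038009 and Has1 at 17855205, so both stretches reach into the gene. Capitals mark a match to 1 of the 3 motifs searched on both strands, which were the TATA box (TATAAA), the AP-1 motif (TGANTCA) and the NF-kB motif.
Tnfaip6: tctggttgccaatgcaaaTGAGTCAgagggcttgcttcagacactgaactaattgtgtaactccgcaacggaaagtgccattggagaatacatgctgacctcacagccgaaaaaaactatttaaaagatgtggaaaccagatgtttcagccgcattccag
Ptx3: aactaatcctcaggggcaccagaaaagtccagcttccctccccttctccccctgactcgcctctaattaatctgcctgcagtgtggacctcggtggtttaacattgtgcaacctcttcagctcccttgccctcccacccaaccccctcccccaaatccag
Has1: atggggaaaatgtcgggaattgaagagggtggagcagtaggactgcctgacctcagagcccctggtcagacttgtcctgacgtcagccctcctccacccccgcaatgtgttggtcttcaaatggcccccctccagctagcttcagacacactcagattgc
Cemip: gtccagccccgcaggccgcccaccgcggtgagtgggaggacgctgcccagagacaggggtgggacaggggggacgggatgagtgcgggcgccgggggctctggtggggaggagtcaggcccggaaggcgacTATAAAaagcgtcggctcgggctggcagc
Tnfaip6 held an AP-1 match from base -142 to -136 before its start, and Cemip a TATAAA from base -29 to -24. Ptx3 held an NF-kB match across the start, from base -1 to 9, and another after it, from base 1 to 10, and both lie beyond the stretch shown apart from base -1, and the Has1 window held none of the 3. RefSeq windows of 300 bases were matched for 7 of the 9 genes. Among the other 3, Hyal2 had an NF-kB match from base -238 to -229, and Cd44 and Hyal1 had no match. Over all 32851 promoter windows, TATAAA was in 13.6%, the AP-1 motif in 7.81% and the NF-kB motif in 8.46%. A match here is a run of letters, not a site that was measured.

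In dFBs, Tnfaip6, Ptx3 and Cemip were at least 2-fold higher in AD and no member was at least 2-fold lower. All 9 members had at least 30 UMIs in dFBs over both libraries. Of the 15601 genes with that many, 9.74% were at least 2-fold higher in AD and 21.1% at least 2-fold lower. Taken as AD over Ctrl, the median log2 ratio was 0.57 over the 9 members and -0.16 over all these genes. The member median is the ratio of Has3, which rests on 22 UMIs in Ctrl and 23 in AD and has an interval of -0.34 to 1.49. Has1 lay just under 2-fold at a log2 ratio of 0.98, and Has2, Hyal1 and Hyal2 were lower in AD by less than 2-fold. Without contractile and follicle mesenchyme dFBs, which were nearly all from Ctrl, the log2 ratio of Tnfaip6 was 0.87, so that 2 members, Ptx3 at 1.08 and Cemip at 6.48, stayed at least 2-fold higher.

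**Figure D1:**
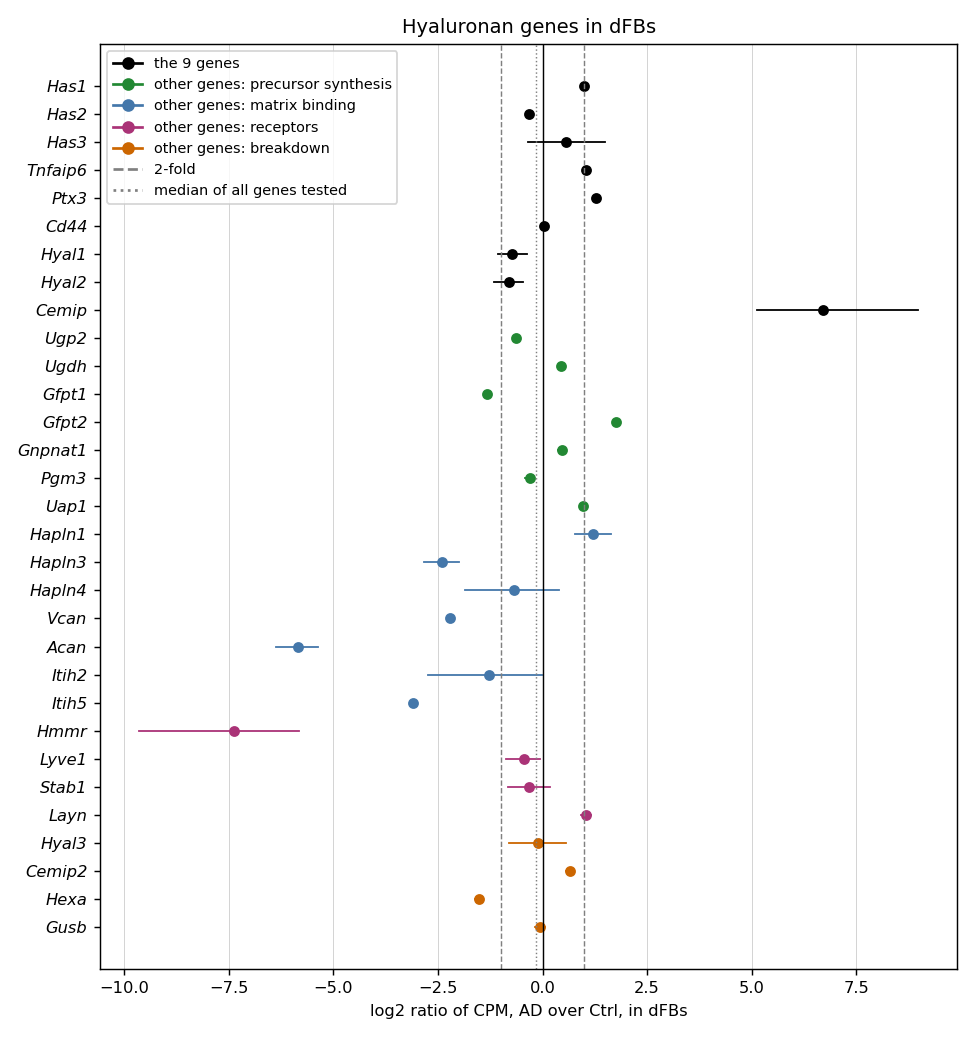
Log2 ratio of CPM, AD to Ctrl, for the 9 members (black) and 22 other genes of the pathway (coloured by group) in dFBs, 1 library per group. Bars are 95% counting intervals, dashed lines mark 2-fold and the dotted line the median of all genes tested (-0.16). Cemip, at 6.71, lies farthest to the right, and Hmmr, at -7.37, and Acan, at -5.85, farthest to the left.

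Has1, Has2, Ptx3 and Tnfaip6 were almost wholly fibroblast transcripts in both libraries. dFBs held 93.8% of the Has1 UMIs of the Ctrl library and 94.9% of those of the AD library, 91.5% and 91.3% of Has2, 93.5% and 94.4% of Ptx3, and 93.4% and 93.9% of Tnfaip6. For Cd44 the dFB share was 36.6% in Ctrl and 54.6% in AD. For Hyal1 it was 29.6% and 29.7%, with KCs holding 42.9% and 41.7%, and for Hyal2 it was 23.1% and 21.1%, with KCs at 43.8% and 40.3%. Summed over the whole library, where the makeup of the cells counts as well, this ratio was, on the log2 scale, 1.28 for Tnfaip6, 1.51 for Ptx3, 1.22 for Has1, -0.05 for Has2, -2.07 for Has3, -0.28 for Cd44, -0.47 for Hyal1, -0.42 for Hyal2 and 5.55 for Cemip.

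**Figure D2:**
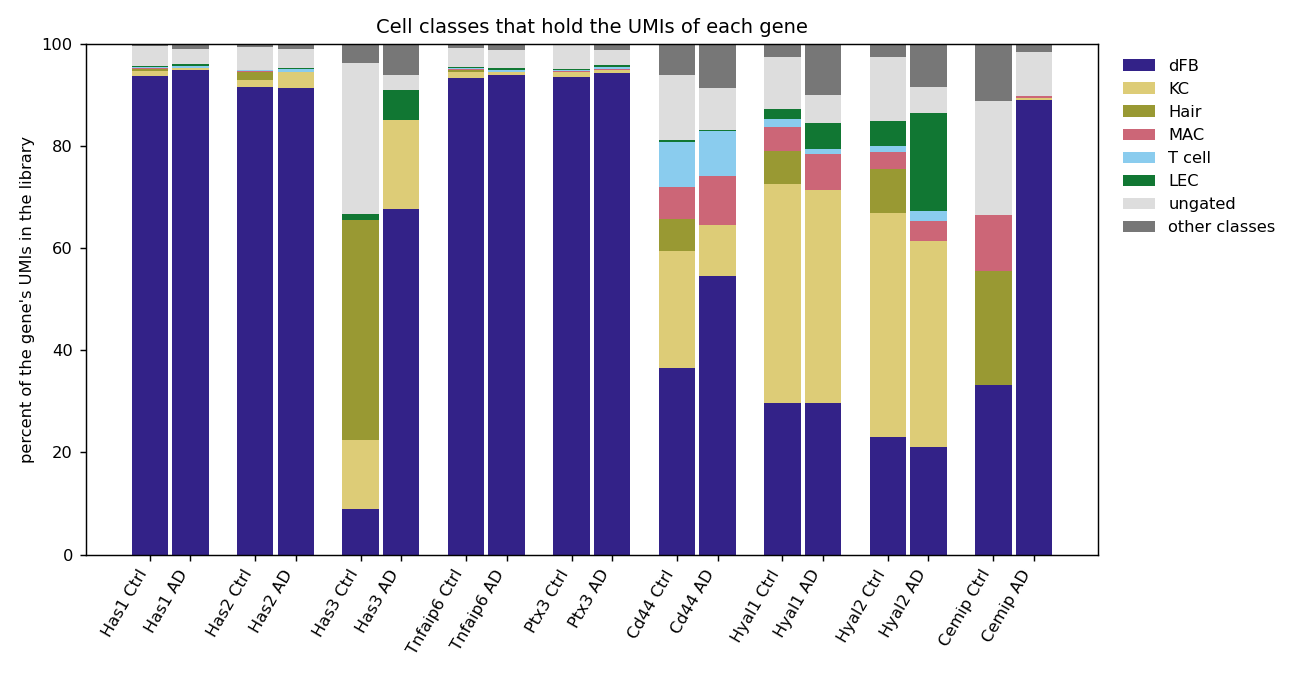
Stacked bars of the share of each member's UMIs (%) by the cell class that held them, in Ctrl and AD. dFBs held more than 91% of Has1, Has2, Ptx3 and Tnfaip6, KCs the most of Hyal1 and Hyal2, and hair matrix cells 43.0% of Has3 in Ctrl.

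Has1, a membrane synthase like the other two, lies at chr17:17843323-17855205 on the minus strand (GRCm38). It gave 34714 UMIs in the dFBs of Ctrl and 48039 in those of AD, or 648 CPM (641 to 655) and 1276 CPM (1264 to 1287). The log2 ratio was 0.98 (0.96 to 1.00), and it was 0.80 without contractile and follicle mesenchyme dFBs. At least 1 Has1 UMI was found in 56.8% of Ctrl and 64.7% of AD dFBs. With each cell thinned to 1000 UMIs, which left out 368 Ctrl and 499 AD cells below that depth over all classes, the shares were 28.9% and 41.7%. T cells, taken as the class that shows free RNA, carried Has1 in 7.89% and 11.7% of cells, and in 2.26% and 2.11% after thinning. The dFBs had medians of 8622 and 6752 UMIs and the T cells 3106 and 5523. The dFB shares thus stood above those of T cells in both libraries, at full depth and at equal depth.

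Within dFBs, Has1 was highest in HI-AP fibroblasts, the subset of Mfap5, Dpp4 and Pi16, with 1281 CPM in Ctrl and 2167 in AD. Against all other dFBs of the same library this was a log2 ratio of 1.67 (1.64 to 1.70) in Ctrl and 1.05 (1.03 to 1.08) in AD. In pAd dFBs Has1 was at 441 and 1190 CPM, in Areg dFBs at 432 and 1022, in RET/PAP (reticular and papillary) dFBs at 346 and 480 and in p.F dFBs at 172 and 439. Each of these 5 subsets had a higher Has1 level in AD than in Ctrl, with log2 ratios from 0.47 (0.31 to 0.64) in RET/PAP to 1.43 (1.35 to 1.52) in pAd dFBs. With the stricter subset gate each was again higher in AD, with ratios from 0.61 in RET/PAP to 1.75 in Areg dFBs. Contractile and follicle mesenchyme dFBs of Ctrl had 35.6 and 52.3 CPM.

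Has2, the synthase that makes the bulk of hyaluronan in many connective tissues, lies at chr15:56665627-56694539 on the minus strand and overlaps the antisense gene Has2os. Whether the counting used strand is not given in the sources used here, so it is not known here whether reads of these overlapping genes were kept apart. In dFBs Has2 went the other way from Has1, with 5749 UMIs in Ctrl and 3243 in AD. These were 107 CPM (105 to 110) and 86.1 CPM (83.2 to 89.1), a log2 ratio of -0.32 (-0.38 to -0.25). The share of dFBs with a Has2 UMI was 40.7% in Ctrl and 20.7% in AD, and 9.05% and 5.98% after thinning. T cells had 0.789% and 1.68%. In AD the 5% of dFBs with the most Has2 held 63.2% of its UMIs, against 37.7% in Ctrl. A share of this kind also rises as UMIs per cell get fewer, and it was not taken at equal depth.

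The lower Has2 level in AD was seen in HI-AP dFBs, with 187 CPM in Ctrl and 133 in AD (log2 ratio -0.49, -0.60 to -0.39), and in p.F dFBs, with 47.8 and 26.2 (-0.87, -1.34 to -0.41). The intervals of the ratio included 0 in RET/PAP dFBs (-0.31, -0.74 to 0.12), pAd dFBs (-0.14, -0.34 to 0.06) and Areg dFBs (0.49, -0.13 to 1.14). With the stricter subset gate the Areg ratio was -0.37 (-1.08 to 0.36). As for Has1, HI-AP dFBs had the highest Has2 level in both libraries, at a log2 ratio of 1.30 over other dFBs in Ctrl and 0.85 in AD.

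In KCs, by contrast, Has2 was higher in AD. There were 90 UMIs in 1460 Ctrl KCs and 112 in 401 AD KCs, or 4.27 CPM (3.43 to 5.24) and 20.2 CPM (16.6 to 24.3), a log2 ratio of 2.24 (1.83 to 2.66). The share of KCs with a Has2 UMI was 4.66% (3.63 to 5.87) and 13.0% (9.84 to 16.7), and 0.426% and 1.64% after thinning. Leaving out the highest cell, which held 21 UMIs in AD, gave a ratio of 2.01. KCs of AD included few suprabasal cells, with 7 cells richer in Krt1 and Krt10 than in basal keratins against 405 in Ctrl. Among KCs richer in basal keratins, 1055 in Ctrl and 394 in AD, Has2 was at 6.00 and 20.4 CPM, a ratio of 1.77 (1.34 to 2.20).

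Has2 was also set against Tnfaip6 in the same cells, beside the value of all dFBs together. That value mixes subsets that differ. In Ctrl, HI-AP dFBs held 2801 Has2 and 22068 Tnfaip6 UMIs, and p.F dFBs 159 and 3024. Per 100 Tnfaip6 UMIs, KCs held 10.4 Has2 UMIs in Ctrl (8.31 to 13.0) and 19.3 in AD (15.7 to 23.7), where dFBs held 7.87 (7.66 to 8.08) and 3.10 (2.99 to 3.21). The KC value lay above the dFB value in both libraries. That alone does not set KCs apart, since T cells of AD, at 5.41 (3.26 to 8.47), also lay above dFBs, while T cells of Ctrl held 2.74 (0.995 to 6.06). The KC intervals did not overlap those of T cells in either library. In Ctrl the KC interval overlapped those of most other classes of at least 50 cells. Among them were macrophages (2.39 to 10.4), vascular smooth muscle cells (2.78 to 10.4), Schwann cells (2.93 to 14.2) and dendritic cells (3.47 to 22.7). In AD it lay above those of all other such classes. The source of the Has2 UMIs in KCs was not tested. The hair matrix cells of Ctrl held 39.3 Has2 UMIs per 100 Tnfaip6 UMIs (31.0 to 49.6), again above dFBs. Their level was 16.1 CPM (13.1 to 19.5) in 380 cells, and 17.4% of the cells carried it. A stricter gate, with a wider margin over the next class, would leave out 322 of these cells. After dFBs, Has2 was thus highest in hair matrix cells in Ctrl and in KCs in AD, with intervals that overlapped those of Schwann cells, at 12.4 CPM in Ctrl from 8 UMIs and 17.0 in AD from 6.

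Has3, a synthase known from epithelia, was scarce. It lies at chr8:106870242-106884566 on the plus strand and overlaps Chtf8 and Derpc on the other strand. The highest level was in hair matrix cells of Ctrl, with 105 of the library's 244 UMIs, 16.4 CPM (13.4 to 19.8) and 20.3% of cells. The classes next in order were endothelial cells (ECs), with 4.88 CPM from 4 UMIs, and Schwann cells, with 4.64 CPM from 3, while KCs had 1.56 CPM from 33 UMIs and dFBs 0.411 CPM from 22. In dFBs the interval of the ratio included 0 (0.57, -0.34 to 1.49). The AD library held 34 Has3 UMIs in all, of which 23 were in dFBs (0.611 CPM) and 6 in KCs (1.08 CPM). As no cell of AD was gated as hair matrix, the whole-library difference in Has3 and the missing class cannot be told apart. T cells carried 0 Has3 UMIs in 760 Ctrl and 477 AD cells. Taking 3 cells of the total as the limit that a count of 0 allows, the share of cells with a UMI is up to 0.395% and 0.629%, which says nothing of cells that express the gene below this depth.

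Tnfaip6 encodes TSG-6, a secreted protein of inflamed tissue that binds hyaluronan and moves heavy chains of inter-alpha-inhibitor onto it. It lies at chr2:52038009-52056686 on the plus strand. dFBs held 73072 Tnfaip6 UMIs in Ctrl and 104770 in AD, or 1364 CPM (1354 to 1373) and 2782 CPM (2765 to 2799). AD was 2.04-fold higher, a log2 ratio of 1.03 (1.02 to 1.04). Tnfaip6 was widespread among dFBs in both libraries, in 85.1% of Ctrl and 88.0% of AD cells, and in 51.3% and 64.4% after thinning. T cells carried it in 19.2% and 24.5%, and in 6.37% and 6.77% after thinning.

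The subset order for Tnfaip6 was not that of Has1. pAd dFBs had the highest level in both libraries, 1922 CPM in Ctrl and 3783 in AD, followed by RET/PAP dFBs with 1715 and 2906 and HI-AP dFBs with 1477 and 2764. Areg dFBs had 1324 and 1568, and p.F dFBs 909 and 1237. All 5 had more in AD, with log2 ratios from 0.24 (0.12 to 0.36) in Areg to 0.98 (0.93 to 1.02) in pAd dFBs, and each lay below the ratio of all dFBs together. With the stricter subset gate the ratios of HI-AP and pAd dFBs, at 1.04 and 1.09, did not. Contractile and follicle mesenchyme dFBs of Ctrl had 187 and 295 CPM, the lowest of the subsets there.

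**Figure D3:**
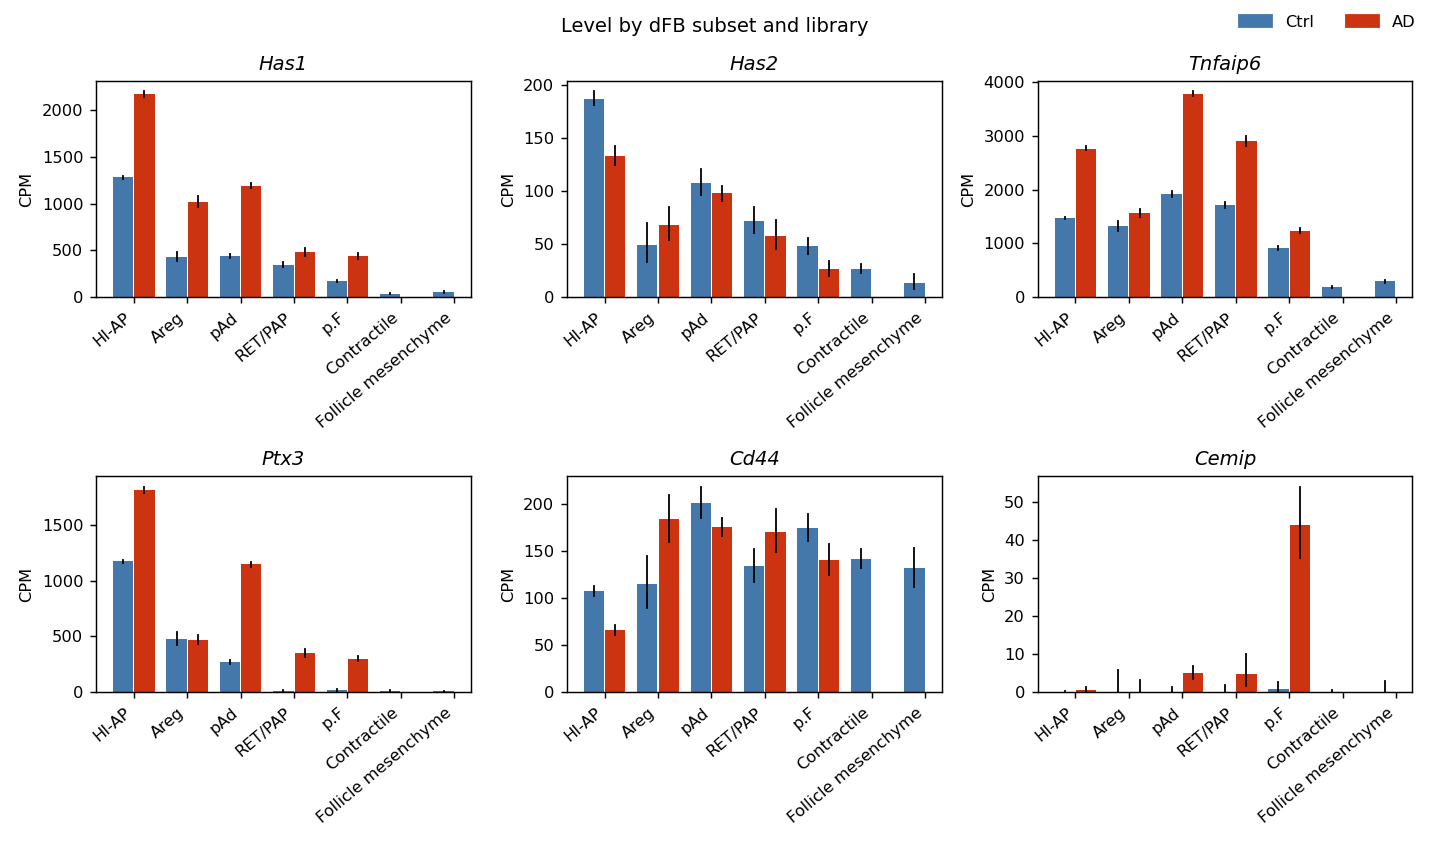
CPM (linear axis from 0, own scale in each panel) of 6 members in each dFB subset in Ctrl (blue) and AD (red), with 95% counting intervals as lines. Has1, Has2 and Ptx3 were highest in HI-AP, Tnfaip6 in pAd and Cemip in p.F dFBs. Contractile and follicle mesenchyme dFBs of AD, with 14 and 16 cells, are not drawn.

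Ptx3 encodes pentraxin 3, a soluble pattern recognition protein that takes part in assembling the hyaluronan matrix together with TSG-6. It lies at chr3:66219910-66225805 on the plus strand, within Veph1 on the other strand. dFBs held 25176 Ptx3 UMIs in Ctrl and 42521 in AD, or 470 CPM (464 to 476) and 1129 CPM (1118 to 1140), a log2 ratio of 1.27 (1.24 to 1.29). The share of dFBs with a UMI was 33.2% and 50.5%, and 16.6% and 31.3% after thinning, against 1.59% and 2.33% of thinned T cells. At equal depth Ptx3, like Has1 and Tnfaip6, was in a larger share of dFBs in AD than in Ctrl.

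The Ptx3 difference was uneven over subsets. In Ctrl the level was highest in HI-AP dFBs, at 1171 CPM, against 480 in Areg, 270 in pAd, 20.1 in p.F and 14.9 in RET/PAP dFBs. In AD, HI-AP dFBs had 1812 CPM (log2 ratio 0.63, 0.60 to 0.66) and pAd dFBs 1145 CPM (2.08, 1.97 to 2.19). p.F dFBs had 301 CPM (3.90, 3.53 to 4.29) and RET/PAP dFBs 350 CPM (4.55, 3.99 to 5.17), although 1 cell held 120 of the 620 UMIs of p.F dFBs. Thus p.F and RET/PAP dFBs, with the least Ptx3 of these 5 in Ctrl, had the largest ratios. Areg dFBs, at 480 and 468 CPM (-0.04, -0.24 to 0.17), did not differ beyond the counting interval. With the stricter subset gate the ratio was 0.46 (0.17 to 0.75) in Areg, 1.08 in HI-AP and 2.74 in pAd dFBs. The log2 ratio of HI-AP over other dFBs was 2.56 in Ctrl and 0.93 in AD.

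Ptx3 and Has2 were both found more often in dFBs that held Has1. After thinning, Ptx3 was in 33.4% of Ctrl dFBs with Has1 and in 9.81% of those without, and in AD in 43.8% and 22.3%. Has2 was in 14.8% of Ctrl dFBs with Has1 and 6.69% of those without, and in AD in 8.93% and 3.87%. These shares describe cells of 1 library each and of several subsets.

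**Figure D4:**
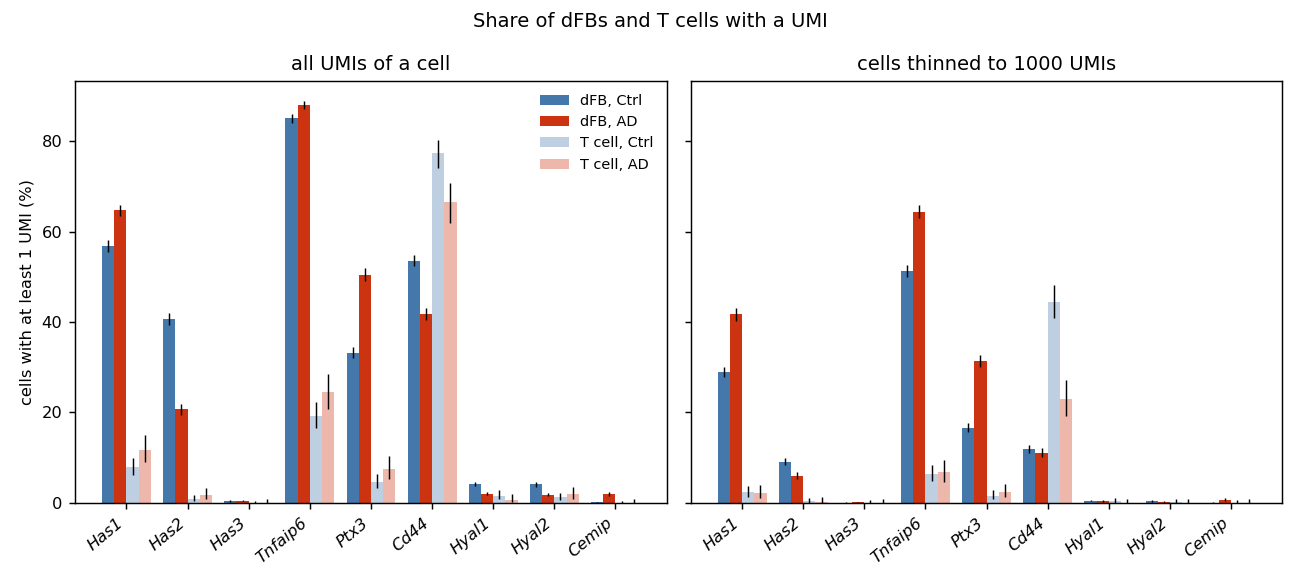
Share of dFBs and of T cells (%) with at least 1 UMI of each member, in Ctrl and AD, from all UMIs of a cell (left) and after thinning to 1000 UMIs a cell (right), with 95% intervals as lines. After thinning, Has1, Ptx3 and Tnfaip6 were in more dFBs of AD than of Ctrl, and T cells stand at 6.77% or less for these 3.

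In classes other than dFBs, Has1, Ptx3 and Tnfaip6 were low and often rested on single cells. The dFB level exceeded the next class without overlap of intervals in both libraries for each of the 3. In Ctrl the next class for all 3 was the Schwann cells, with 49.5 CPM of Has1, 23.2 of Ptx3 and 178 of Tnfaip6, and intervals that overlapped the class after it. The summed dFB markers in these Schwann cells were at 3705 CPM, against 680 in KCs and 1103 in T cells. In AD the next class was melanocytes for Has1 (341 CPM) and Ptx3 (235 CPM) and Schwann cells for Tnfaip6 (404 CPM). A single melanocyte held 61 of the 109 Has1 UMIs, and in the same class 63 of the 75 Ptx3 UMIs were in 1 cell. In lymphatic endothelial cells (LECs) of AD 1 cell held 75 of 146 Has1 UMIs, 1 held 91 of 203 Ptx3 UMIs and 1 held 173 of 434 Tnfaip6 UMIs. In ECs of AD 1 cell held 49 of 104 Has1 UMIs. In T cells of AD 1 cell held 115 of 199 Ptx3 UMIs, and the log2 ratio there was 1.78 with it and 1.00 without. Doublets could not be called in the AD library, and their part in these values was not tested.

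In KCs, 3 members, Has2, Ptx3 and Tnfaip6, were at least 2-fold higher in AD and none at least 2-fold lower, of 8 with at least 30 UMIs. Of all 13145 such genes in KCs, 7.4% were at least 2-fold higher and 15.3% at least 2-fold lower. Ptx3 was at 12.0 CPM in Ctrl and 43.2 in AD (1.85, 1.59 to 2.11) and Tnfaip6 at 40.9 and 104 (1.35, 1.20 to 1.51). In AD 1 KC held 110 of the 240 Ptx3 UMIs, and 113 of the 579 Tnfaip6 UMIs were in 1 KC. With a stricter gate the ratios were 0.71 and 0.21, below 2-fold, so these calls depend on which cells count as KCs. The share of KCs with a Tnfaip6 UMI went the other way, from 35.5% in Ctrl to 31.9% in AD, and from 4.68% to 4.11% after thinning, below the 6.37% and 6.77% of T cells. The source of the Tnfaip6 UMIs in KCs was not tested. Per 100 Tnfaip6 UMIs, KCs held 29.4 Ptx3 UMIs in Ctrl (25.4 to 33.8) and 41.5 in AD (35.5 to 48.3), where dFBs held 34.5 and 40.6. In macrophages (MACs), 1 member, Ptx3, was at least 2-fold higher, at 14.5 CPM in Ctrl from 38 UMIs and 29.9 in AD from 55 UMIs, and none lower, of 6 tested. The Ptx3 ratio of 1.05 was 0.07 with Leiden clusters and 0.52 without the highest cell, so this call depends on the gate and on 1 cell. Among 9024 genes in MACs 5.77% were at least 2-fold higher and 10.3% at least 2-fold lower. Per 100 Tnfaip6 UMIs, MACs held 22.5 Ptx3 UMIs in Ctrl (15.4 to 32.1) and 30.7 in AD (22.3 to 41.8), against the same dFB values.

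**Figure D5:**
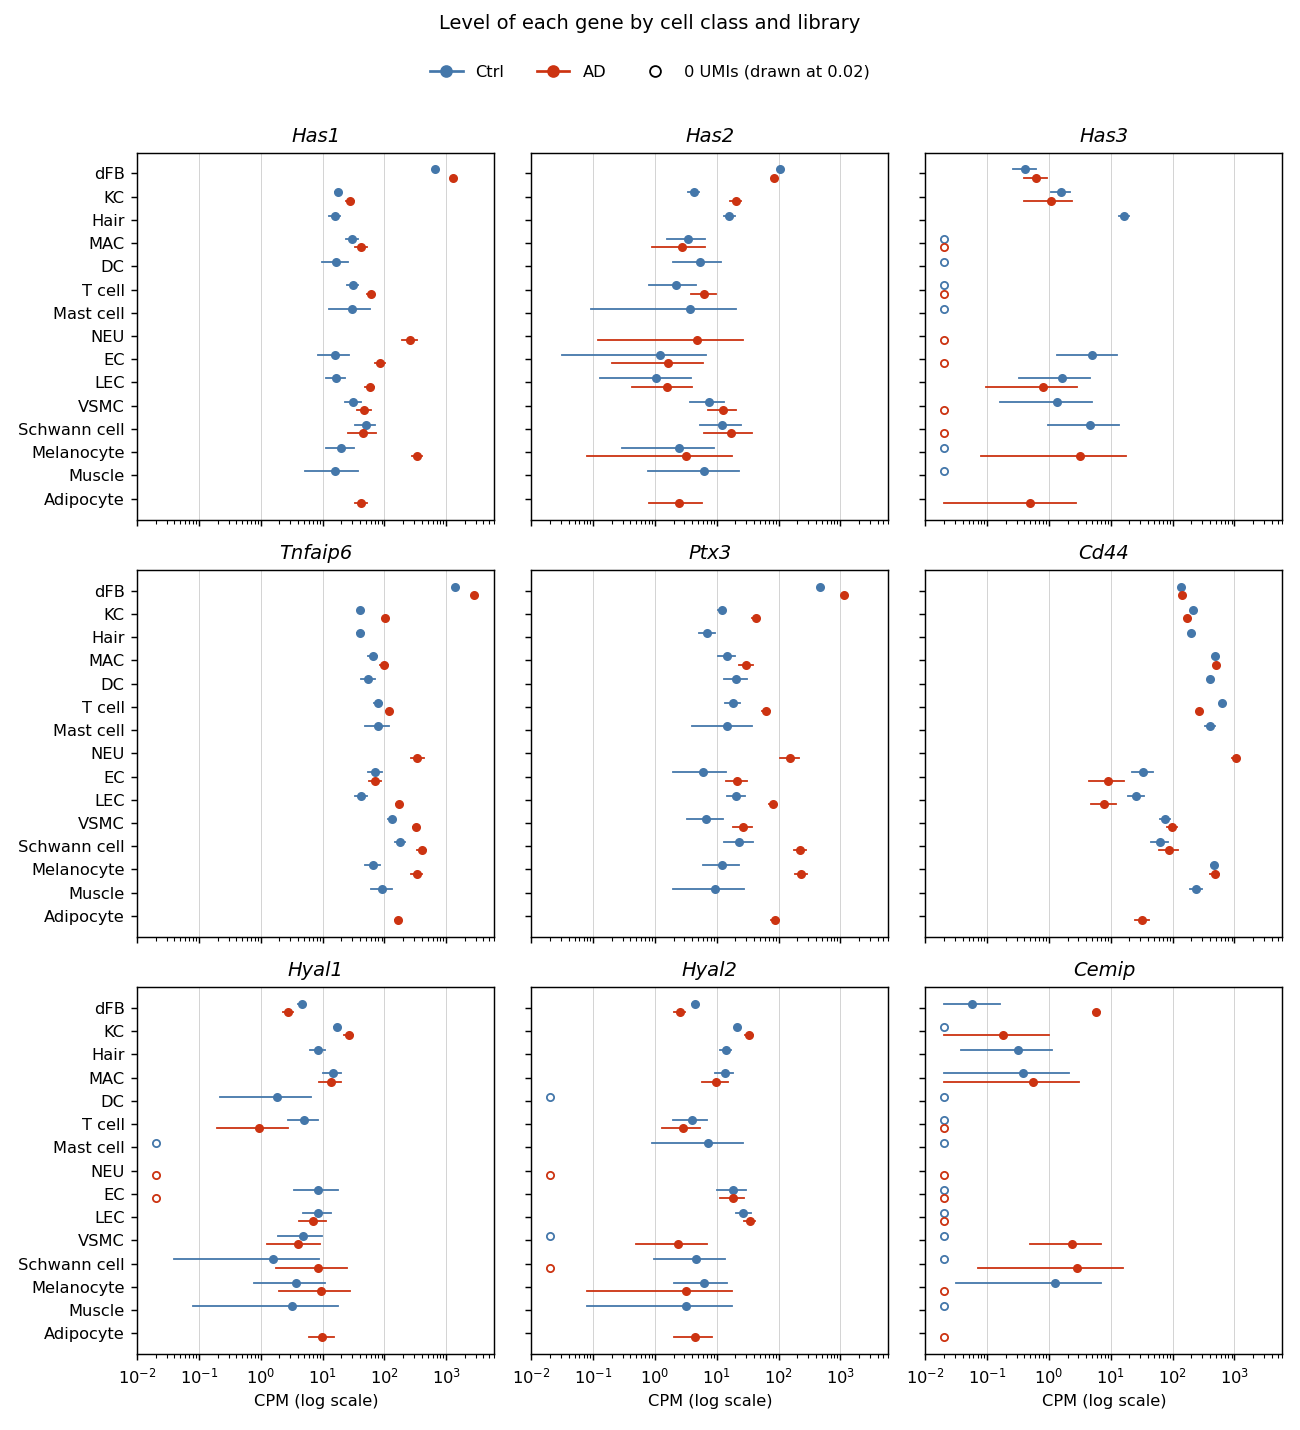
CPM of each member by cell class (log axis) in Ctrl and AD, with 95% counting intervals, for classes of at least 50 cells. Open circles mark classes with 0 UMIs, drawn at 0.02. dFBs lead for Has1, Has2, Ptx3 and Tnfaip6, while immune cells lead for Cd44, KCs for Hyal1 and LECs and KCs for Hyal2.

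Cd44, the main cell surface receptor for hyaluronan, was found in every class shown. It lies at chr2:102811141-102901665 on the minus strand. In Ctrl the order was led by T cells at 635 CPM (606 to 666), ahead of MACs at 482 (455 to 509), melanocytes at 466 (420 to 515), mast cells at 408 and dendritic cells (DCs) at 405, and the last 4 of these overlapped from one to the next. Of the cells gated as DCs in Ctrl, 19.5% lay in a DC cluster. KCs had 217 CPM, hair matrix cells 199 and dFBs 137, with no overlap between these 3. VSMCs (vascular smooth muscle cells) had 75.9 CPM, Schwann cells 61.8, ECs 32.9 and LECs 25.5. In AD, neutrophils (NEUs), of which Ctrl held 4 cells, came first at 1058 CPM (924 to 1207), with Cd44 in 96.2% of 53 cells. MACs followed at 502 CPM (470 to 536) and melanocytes at 482 (409 to 564).

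Between the libraries, Cd44 in dFBs did not differ beyond the counting interval, at 137 and 140 CPM (log2 ratio 0.03, -0.02 to 0.08), nor did Cd44 in MACs (0.06, -0.06 to 0.18). It was lower in AD in T cells, at 635 and 270 CPM (-1.23, -1.35 to -1.11), in ECs, at 32.9 and 9.03 (-1.87, -3.03 to -0.81), in LECs, at 25.5 and 7.90 (-1.69, -2.52 to -0.91), and in KCs, at 217 and 174 (-0.32, -0.42 to -0.22). The KC ratio was -0.52 in cells richer in basal keratins and 0.06 over all deposited barcodes. In T cells the share with a UMI was 77.4% and 66.5%, and 44.5% and 23.0% after thinning. The markers of the T cell gate differed between the libraries too, but not all in the same way. Trdc was at 587 CPM in Ctrl and 153 in AD, Cd3e at 481 and 177 and Cd3g at 1020 and 345. Cd3d was at 497 and 463, Trbc1 at 467 and 410 and Lck at 150 and 115. Trac, at 285 and 314, and Trbc2, at 547 and 686, were higher in AD. The part of the makeup of the gated cells in the Cd44 difference of T cells was not tested.

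Within dFBs, Cd44 differed in opposite directions in the subsets. HI-AP dFBs had 108 CPM in Ctrl and 66.2 in AD (-0.71, -0.85 to -0.56), while Areg dFBs had 115 and 184 (0.67, 0.28 to 1.08) and RET/PAP dFBs 134 and 171 (0.36, 0.09 to 0.63). p.F dFBs, at 175 and 141 (-0.32, -0.53 to -0.11), and pAd dFBs, at 201 and 176 (-0.20, -0.34 to -0.05), were lower in AD, but with the stricter subset gate both intervals included 0 (-0.60 to 0.01 and -0.39 to 0.04). HI-AP dFBs, with the most Has1 and Has2, had the least Cd44 of the 5 subsets in AD, at a log2 ratio to other dFBs of -1.27 there and -0.46 in Ctrl, where their interval overlapped that of Areg dFBs.

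Hyal1 and Hyal2 are neighbours on chromosome 9. Hyal1, the lysosomal hyaluronidase, lies at chr9:107576927-107581710 on the plus strand and overlaps Naa80 and Hyal3 on the same strand and Gm16343 on the other, so its reads cannot be fully told apart from theirs. Hyal2, anchored to the cell surface, lies at chr9:107567945-107572779 on the plus strand and overlaps Gm9917 on the other. Both were scarce in dFBs and lower there in AD. Hyal1 had 244 and 104 UMIs, or 4.55 and 2.76 CPM (-0.72, -1.07 to -0.38), and Hyal2 239 and 96 UMIs, or 4.46 and 2.55 CPM (-0.81, -1.16 to -0.46). Hyal1 was in 4.10% and 1.99% of dFBs, against 1.58% and 0.629% of T cells, which were shallower, and after thinning in 0.461% and 0.310% of dFBs, against 0.266% and 0% of T cells. Hyal2 was in 4.03% and 1.79% of dFBs, against 1.18% and 1.89% of T cells, and after thinning in 0.390% and 0.186%, against 0.133% and 0%. T cells had 5.03 CPM of Hyal1 in Ctrl (2.75 to 8.44) and 0.950 in AD (0.196 to 2.78), and 3.95 CPM of Hyal2 in Ctrl (1.97 to 7.07) and 2.85 in AD (1.30 to 5.41). These intervals overlapped those of dFBs for both genes in both libraries, so the dFB levels were not shown to lie above background.

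KCs had the most Hyal1 in AD, at 26.3 CPM (22.2 to 30.9), and in Ctrl their 16.8 CPM (15.1 to 18.6) overlapped the 14.5 of MACs. LECs and KCs had the most Hyal2, at 27.1 and 21.5 CPM in Ctrl and 34.3 and 33.0 in AD, with overlapping intervals in both. In KCs both genes were higher in AD, by a log2 ratio of 0.65 (0.36 to 0.93) for Hyal1 and 0.62 (0.36 to 0.87) for Hyal2. In KCs richer in basal keratins the interval of the Hyal1 ratio included 0 (0.21, -0.09 to 0.50), at 22.9 and 26.5 CPM, while that of Hyal2 was 0.53 (0.26 to 0.80), at 22.9 and 33.0 CPM. After thinning, Hyal1 was in 1.91% of Ctrl and 3.29% of AD KCs (1.27 to 2.77 and 1.71 to 5.67) and Hyal2 in 2.13% and 1.37% (1.44 to 3.02 and 0.446 to 3.17), with overlapping intervals for both genes. In LECs the interval of the Hyal2 ratio included 0 (0.34, -0.18 to 0.87).

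Cemip lies at chr7:83932857-84086502 on the minus strand. The whole Ctrl library held 9 Cemip UMIs and the AD library 247, of which 89.1% were in dFBs. dFBs had 3 UMIs in Ctrl and 220 in AD, or 0.056 CPM (0.0115 to 0.164) and 5.84 CPM (5.10 to 6.67). The log2 ratio was 6.71 (5.14 to 8.99), an interval set by the 3 Ctrl UMIs. In AD 98 dFBs, 1.95% (1.59 to 2.37), carried Cemip. Of T cells, 0 of 760 had a Cemip UMI in Ctrl and 0 of 477 in AD, and the same limit of 3 cells allows a share with a UMI of up to 0.395% and 0.629%. After thinning the dFB share was 0.662% in AD and 0 in Ctrl.

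p.F dFBs, marked by genes such as Prdm1, Ntn1 and Apcdd1, had the highest Cemip level among the subsets of at least 50 cells, with 91 UMIs in 35 of the 324 AD cells (10.8%, 7.64 to 14.7) and 44.1 CPM (35.5 to 54.2). In Ctrl the 3 UMIs of dFBs were all in p.F cells, at 0.902 CPM (log2 ratio 5.61, 4.02 to 7.92). In AD the level in p.F over other dFBs was a log2 ratio of 3.61. pAd dFBs held 36 UMIs in 8 cells of AD, RET/PAP dFBs 6 UMIs, HI-AP dFBs 5 and Areg dFBs 0, and dFBs placed in no subset held 76 UMIs in 42 cells. Follicle mesenchyme dFBs of AD, only 16 cells, held 5 UMIs in 4 cells. Their level of 41.9 CPM (13.6 to 97.9) overlapped that of p.F dFBs. The 14 contractile dFBs of AD held 1 UMI. Thus p.F dFBs, with the least Has2 and Tnfaip6 of the other 5 subsets in AD, had the most Cemip of these 5. The 98 AD dFBs with Cemip carried Tnfaip6 in 86.7% and Ptx3 in 31.6%, against 88.0% and 50.9% of dFBs without. After thinning only 32 dFBs held Cemip. Of these, 12 carried Tnfaip6 (37.5%) and 3 Ptx3 (9.38%), against 64.6% and 31.4% of dFBs without. Of the 98 cells, 35 were p.F dFBs, and the part of the subsets in these shares was not tested.

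The other genes of hyaluronan metabolism differed in both directions in dFBs. Of 35 symbols listed, 34 were in the files and 22 had at least 30 UMIs in dFBs, of which 3 were at least 2-fold higher in AD and 8 at least 2-fold lower, against 9.74% and 21.1% of all genes. Their median log2 ratio was -0.39. The symbol Tmem2 on the list is an older name of Cemip2.

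The first group makes the sugar nucleotides from which synthases build the chain, and 1 of its 7 genes was at least 2-fold higher and 1 lower. Gfpt2, an enzyme of the first step of hexosamine synthesis, was at 332 CPM in Ctrl and 1124 in AD (1.76), while Gfpt1, which does the same step, was at 95.3 and 38.2 (-1.32). Uap1, the last enzyme of UDP-N-acetylglucosamine synthesis, was at 246 and 479 (0.96), and Ugdh, which makes UDP-glucuronate, at 585 and 800 (0.45). Gnpnat1 had a log2 ratio of 0.47, Pgm3 of -0.31 and Ugp2 of -0.64.

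Among matrix-binding genes, 5 of 7 tested were at least 2-fold lower in AD and 1 higher. Itih5, a heavy chain of the inter-alpha-inhibitor family, was at 603 and 70.1 CPM (-3.10), and the hyaluronan-binding proteoglycans Vcan at 945 and 202 (-2.22) and Acan at 55.2 and 0.956 (-5.85). Hapln3, a link protein, was at 7.73 and 1.46 (-2.40) and Itih2 at 0.448 and 0.186 (-1.27). Hapln1, another link protein, was at 1.42 and 3.27 (1.20), and Hapln4 had a log2 ratio of -0.68. Some of these ratios moved with the makeup of dFBs. Without contractile and follicle mesenchyme dFBs they were -1.63 for Vcan, -4.86 for Acan, -1.20 for Hapln3 and 2.46 for Hapln1, while that of Itih5 was -3.02.

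Of 4 receptor genes tested, Layn (layilin) was at 19.9 and 41.2 CPM (1.05, and 0.95 without contractile and follicle mesenchyme dFBs) and Hmmr, which also serves in mitosis, had 708 UMIs in Ctrl and 3 in AD (-7.37). In dFBs Lyve1, at 2.84 and 2.07 CPM, had a log2 ratio of -0.45 and Stab1, at 1.79 and 1.43, of -0.32. Both were far higher in other classes. In LECs Lyve1 was at 1013 and 2408 CPM (1.25) and Stab1 at 341 and 169 (-1.01). In MACs Lyve1 was at 164 and 124 CPM (-0.40) and Stab1 at 148 and 45.2 (-1.71). Of 4 breakdown genes tested, Hexa, a subunit of a lysosomal enzyme, was at 118 and 41.0 CPM (-1.53). Cemip2, a membrane relative of Cemip, was at 29.3 and 46.1 CPM (0.65), and Gusb and Hyal3 had ratios of -0.07 and -0.11.

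Across the 24 sums of a class in a library with at least 50 cells, the genes whose log2(CPM + 1) was most like that of each member were found among 17602 genes. For Has1 they were Mmp2 (Pearson r 0.938), Ctsk (0.916) and Pdgfra (0.907), for Tnfaip6 Thbs2 (0.937), Ctsk (0.923) and Scara5 (0.912), and for Ptx3 Pamr1 (0.909), Thbs2 (0.894) and Mmp2 (0.884). For Has2 they were Smoc2 (0.820), Catspere2 (0.793) and Hapln4 (0.788), and for Cd44 Tank (0.835), Cers6 (0.815) and Mkrn1 (0.771). Hyal2 was most like Cmtm8 (0.832), Rassf9 (0.828) and Tbx1 (0.816), and Hyal1 most like Coq6 (0.748), Ccdc51 (0.744) and Hivep3 (0.741). Has3 was most like Oip5 (0.795), Rnf32 (0.784) and Yeats2 (0.783), and Cemip most like Slc17a1 (0.786), A530065N20Rik (0.767) and Gm30984 (0.747). Between members r was 0.890 for Has1 with Tnfaip6 and 0.879 both for Has1 with Ptx3 and for Ptx3 with Tnfaip6. The points come from 2 libraries and differ in depth, and many of them are at or near 0 for Has3 and Cemip.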

How the data were processed

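Skin cells were profiled by droplet single-cell RNA-seq (10x 3′ v3.1) in 1 Ctrl and 1 AD library. The authors deposited raw UMI counts per gene and barcode. The matrix headers name Cell Ranger 5.0.0, while the submitters' processing notes list Cell Ranger 3.1.0, Seurat 5.0 and mm10. The deposited barcodes had not been through the cell filter of the study's methods, which was applied here (200 to 6000 genes and at most 10% mitochondrial UMIs). 1199 of 12598 Ctrl and 599 of 8778 AD barcodes were removed.

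A cell joined a class when at least 2 of its markers were on and their share was at least 1.5 times that of the next class. A marker was on with at least 1 UMI and a CPM of at least 5% (subsets 10%) of its 99.5th percentile in that library. These settings were chosen after marker levels, not member values, were seen. Of 17394 gated cells, 95.1% lay in a Leiden cluster of the same class. Scrublet called 3.47% of Ctrl and 0% of AD cells doublets, so it did not work on AD, and doublets were kept.

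UMIs were summed by class and scaled to CPM. Intervals were exact Poisson for sums, Clopper-Pearson for shares and conditional binomial for ratios. Those for ratios were tried on sums simulated from the same Poisson model, which does not cover the spread between cells. A gene entered a count with at least 30 UMIs in the class. Alternatives were all deposited barcodes, stricter filters and gates, Leiden clusters, doublets or shared barcodes left out, mean cell CPM, centring and no UMI minimum. The members, the other genes of the pathway and the cell markers were chosen with earlier results of these data known. Named were all members in classes of at least 50 cells, pathway genes with at least 100 UMIs in dFBs or past 2-fold there, and the 3 genes most like each member, and 1 pathway gene is not reported here. Gene positions came from GENCODE release 21, which held 32475 of the 33904 gene identifiers. Python 3.11.15, numpy 2.4.6, scipy 1.17.1, pandas 2.3.3 and scanpy 1.11.5 were used.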

Additional observations from a re-analysis of the deposited data

How the results depend on the processing

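No paired analysis was possible because each group holds 1 library. With 1 library a group, no setting shows how a value would vary between mice. The count of members at least 2-fold higher in AD in dFBs ranged from 2 to 4 over all settings, 2 with the stricter gate or without contractile and follicle mesenchyme dFBs and 4 over all deposited barcodes, with Leiden clusters, with centring on the median gene or with the mean of each cell's CPM, and the count of those lower was 0 in each. The fourth was Has1 in each case but the last, where Has1 (1.03) and Has3 (1.08) came in and Tnfaip6 (0.86) dropped out. Of pathway genes, 2 to 4 were higher and 7 or 8 lower. Without the minimum of 30 UMIs, 2359 genes in place of 1519 were at least 2-fold higher in dFBs. In dFBs the log2 ratio stayed above 0 for Has1 (0.80 to 1.14), Ptx3 (1.08 to 1.45), Tnfaip6 (0.86 to 1.19) and Cemip (5.74 to 7.20) and below 0 for Has2 (-0.46 to -0.16), Hyal1 (-0.77 to -0.56) and Hyal2 (-0.85 to -0.65). That of Cd44 went from -0.08 to 0.19, and that of Has3, whose counting interval includes 0, from 0.50 to 1.08. In KCs the ratio of Has2 was 1.77 to 2.39.

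Ratios of dFB genes in other classes depended on the gate. With the stricter gate that of Has1 in LECs was -0.02 in place of 1.80, that of Tnfaip6 in Schwann cells -0.63 in place of 1.19 and that of Has1 and of Tnfaip6 in T cells -0.18 in place of 0.97 and 0.57. With Leiden clusters that of Ptx3 in VSMCs was -0.36 in place of 1.98 and in MACs 0.07 in place of 1.05. The cause was not tested. The Has3 level of Ctrl hair matrix cells was 24.3 CPM with the stricter gate, in 58 cells, and 13.4 CPM with Leiden clusters, in 880 cells. Leaving out contractile and follicle mesenchyme dFBs, leaving out the highest cell, the stricter subset gate and splitting KCs by keratins were chosen after seeing the data. Depth limits Has3, Cemip in Ctrl and Hyal1 and Hyal2 outside KCs, where most values rest on under 100 UMIs.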
